A study of Mus musculus with 2 samples.

Results

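The enzymes that take acetyl and methyl groups off histones, with several that put methyl groups on, were compared between 2 cultures of 46C mouse embryonic stem cells. The genes were all rows of the expression table whose symbol belongs to the numbered Kdm, Hdac, Sirt, Setd, Prmt or Ehmt series, less 1 row that the rule leaves out. This gave 51 of the 14500 gene symbols in the table: 16 Kdm, 11 Hdac, 7 Sirt, 8 Setd, 7 Prmt and 2 Ehmt. The rule uses symbols and no measured value, although the gene series were chosen with earlier results of these data known.

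The 46C line is a Sox1 reporter line with a green fluorescent protein gene at that locus, and its cells were grown on gelatin in serum medium with LIF at passages 21 to 24. One culture received the empty vector (PB) and the other the Gbx2 vector (PB-Gbx2), which drives a homeobox transcription factor. The promoter of the vector and whether each culture is 1 clone or a pool were not stated in the labels. Each group has 1 library, so no value below has a replicate error and no test between the vectors is possible. The source names of the libraries are swapped against their titles, and groups follow the titles. Gbx2 itself stood at a level of 345 in PB and 1178 in PB-Gbx2, 3.41-fold higher in the library titled PB-Gbx2, and under the source names every direction below would turn around. All 13 embryonic stem cell markers checked had a row, with a median log2 ratio of 0.17. By any amount, 8 of the 13 stood higher in PB-Gbx2, 4 lower and 1 equal. Past the 1.5-fold threshold used below, 11.6% of all genes were higher and 12.2% lower. Of the 13 markers, 3 were higher past it, namely Klf4 (4701 and 10924), Nanog (8918 and 19872) and Zfp42 (8320 and 16671). None was lower past it, although Lin28a (4206 and 2863) was just short at 1.47-fold lower. Of 14 fibroblast markers 7 had a row, with summed levels of 2363 in PB and 1867 in PB-Gbx2 and a median log2 ratio of 0.04. Col1a1 (132 and 36) and Thy1 (866 and 492) were lower past 1.5-fold, Col1a2 (9 and 18) and Twist1 (16 and 26) higher, and Col5a1, Fbn1 and Pdgfrb neither. The part of these markers' cell types or states in the results below was not tested. In RNA from whole cultures, fewer cells that express a gene and less RNA per cell cannot be told apart.

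Histone tails carry acetyl and methyl groups that help to set which genes are open to transcription. Acetyl groups are removed by zinc-dependent deacetylases (Hdac) and by NAD-dependent sirtuins. Methyl groups on lysines are removed by flavin enzymes or by JmjC enzymes, which need iron, oxygen and 2-oxoglutarate, and are added by SET domain enzymes, while Prmt enzymes methylate arginines. In embryonic stem cells such enzymes hold lineage genes in a poised or silent state, and many of them also modify proteins other than histones.

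Values are levels that the authors normalized and rounded to whole numbers. No correction for gene length is stated for them, so the levels of single genes are compared between libraries and not with one another. Ranks by level serve only to find genes of similar level, since ratios scatter more at low levels. A gene is called higher or lower where its level differs at least 1.5-fold, on a log2(level + 1) scale. The middle 90% of genes of similar level means the range between the 5th and 95th percentile of log2 ratios in the same twentieth of all genes ranked by mean level.

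Most of the 51 genes had similar levels in both libraries. Sirt1, Prmt8, Kdm5b, Kdm8 and Kdm4dl were at least 1.5-fold higher in PB-Gbx2, and Hdac11 was at least 1.5-fold lower. The share of all genes called higher was 11.6% and the share called lower 12.2%, so the 5 genes called higher are near the background and the single gene called lower is below it. With a threshold of 2-fold, 3 of the 51 were higher (Sirt1, Prmt8 and Kdm4dl; 5.14% of all genes) and 0 lower (5.26% of all genes). Of the 51, 31 lay above and 20 below their PB level, beside 49.2% and 48.9% of all genes. The median log2 ratio was 0.05, against 0.00 over all genes.

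**Figure D1:**
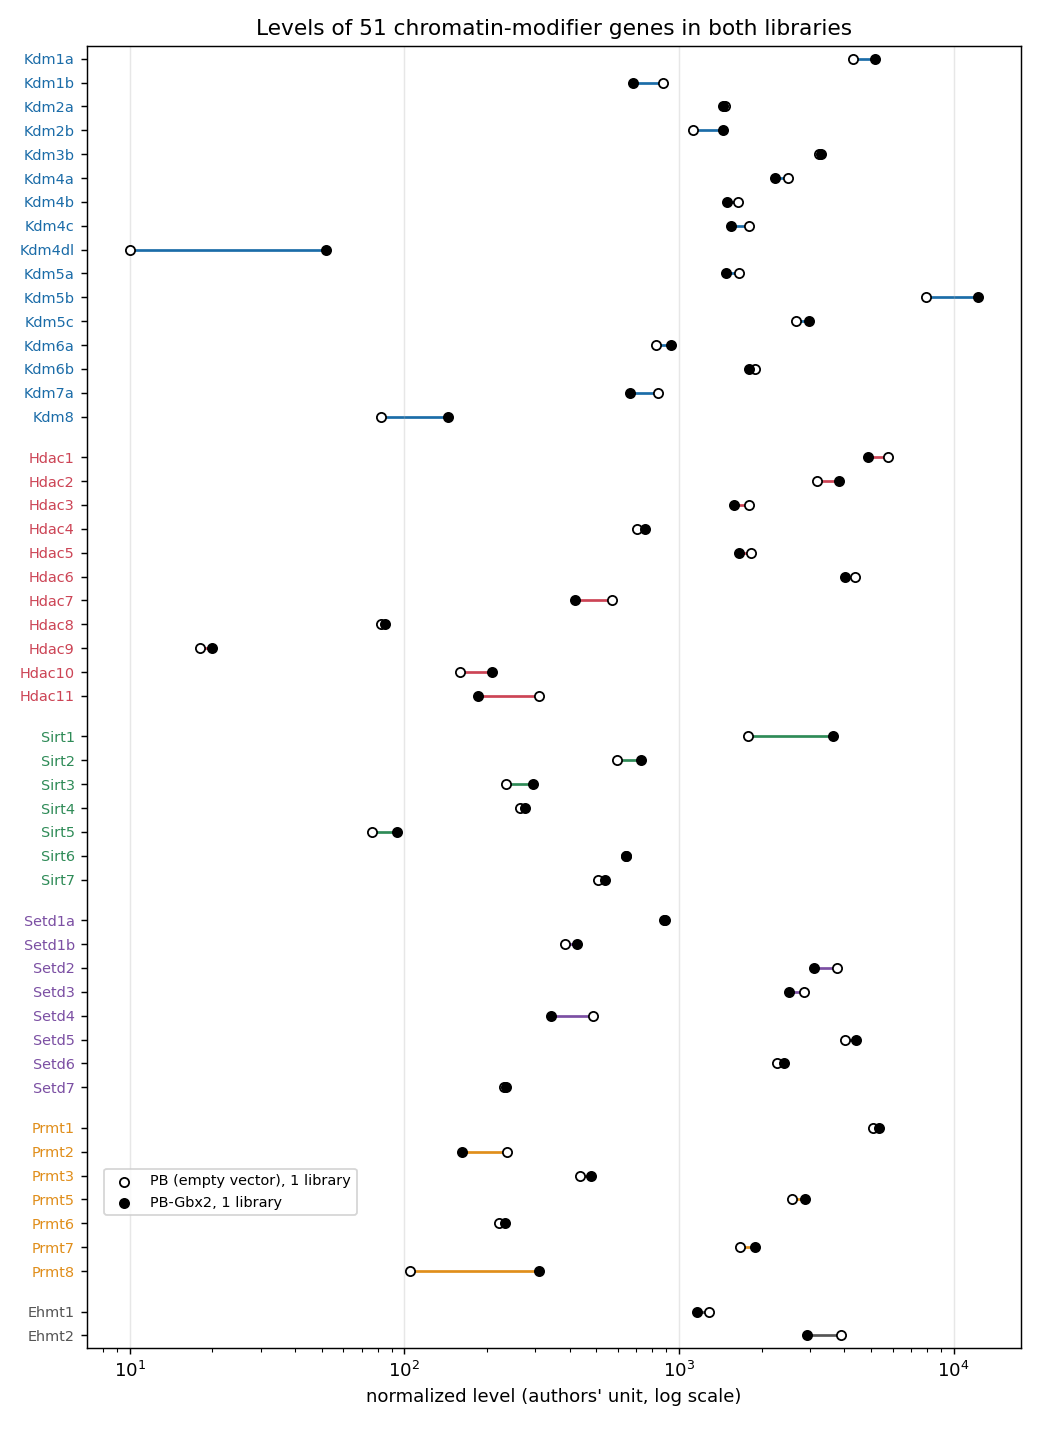
Normalized level (log axis, authors' unit) of each of the 51 genes in the PB library (open points) and the PB-Gbx2 library (filled points), grouped by gene series, with a line joining the values of a gene. Most pairs nearly coincide, and the long lines belong to Kdm4dl, Prmt8, Sirt1, Kdm8, Hdac11 and Kdm5b.

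By this rank, with no length correction stated, 24 of the 51 genes were among the top 20% of all genes, where ratios scatter less. The SD of log2 ratios was 1.16 in the lowest 10% of all genes by level and 0.32 in the highest 10%. The median absolute log2 ratio of the 51 genes was 0.18, below the 0.27 of all genes and close to the 0.19 of genes of their own level. Ratios of at most 1.2-fold were found for 32 of the 51, or 62.7%, beside 48.6% of all genes. Among genes with a mean level of at least 100, these shares were 63.8% of 47 members and 57.9% of all genes. For 27 of the 51, the absolute ratio was below the median of genes of similar level, so the group varied about as much as other genes of its level. At that minimum, 4 of 47 members were called higher (6.81% of all such genes) and 1 lower (7.13%). Of the 51 genes, 4 lay outside the middle 90% of genes of similar level, beside 10.2% of all genes. These 4 were Sirt1, Prmt8, Kdm5b and Kdm4dl, and each was higher in PB-Gbx2. The authors' deposited table gives 3 of the 51 a p under 0.05 (3.74% of all genes), again Sirt1, Prmt8 and Kdm5b, and 0 an adjusted p under 0.05 (0.234% of all genes).

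**Figure D2:**
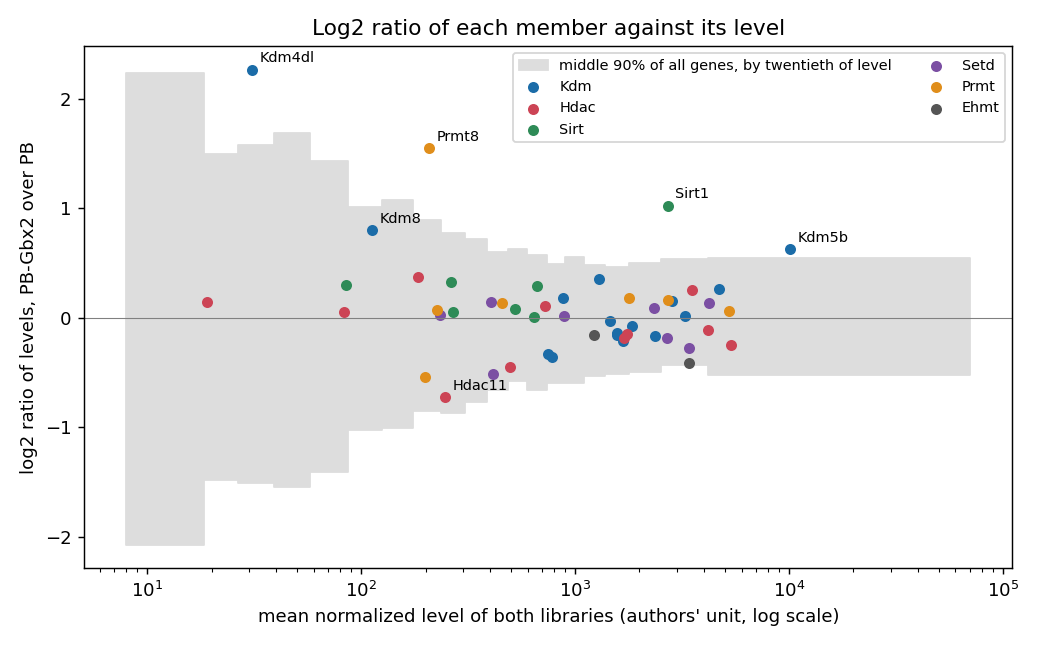
Log2 ratio of PB-Gbx2 over PB (vertical axis) against the mean level of both libraries (log axis, authors' unit) for the 51 genes, coloured by series. The grey band is the middle 90% of all genes by twentieth of level. Sirt1, Prmt8, Kdm5b and Kdm4dl lie above the band, while Kdm8 and Hdac11, although past 1.5-fold, lie inside it.

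Sirtuins use NAD to remove acetyl and other acyl groups. Sirt1, a nuclear deacetylase of histones, p53 and other factors, stood at 1784 in PB and 3633 in PB-Gbx2. This 2.04-fold difference placed it at percentile 99.7 of genes of similar level, where the middle 90% ran from -0.43 to 0.54 and Sirt1 had a log2 ratio of 1.03. In the authors' deposited table Sirt1 has a p of 0.00186 and an adjusted p of 0.247, both from 1 library per group. The other nuclear sirtuins differed far less. Sirt6, which acts on histone H3 at telomeres and in DNA repair, was at 640 and 642. Sirt7, a nucleolar enzyme, was at 509 and 539.

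The sirtuins outside the nucleus lay between 1.04-fold and 1.26-fold higher in PB-Gbx2. Sirt2, the cytoplasmic tubulin deacetylase, had levels of 593 and 728. Among the mitochondrial enzymes, Sirt3 was at 234 and 294, Sirt4 at 264 and 274 and the desuccinylase Sirt5 at 76 and 94. All 7 sirtuins thus had the higher level in PB-Gbx2, by only 2 units for Sirt6, and 1 of 7 was called higher (11.6% of all genes). Their median log2 ratio was 0.30 with Sirt1 and 0.19 without it, and no sirtuin other than Sirt1 left the middle 90% of genes of similar level.

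Of the genes called higher, Kdm4dl had no promoter entry and the promoter of Prmt8 is not shown. The proximal promoters of Sirt1, Kdm5b and Kdm8 are shown, as sequence before the start of transcription that is clear of annotated exons. They come from RefSeq's table for GRCm38.p6, which is not the mm9 build of the expression data, and end where the first GENCODE M21 exon begins or at the RefSeq start. The sequences read 5′ to 3′ towards the gene, with each CpG dinucleotide in capitals. The Sirt1 stretch is at chr10:63339051-63339285 on the minus strand, the Kdm5b stretch at chr1:134559928-134560170 on the plus strand and the Kdm8 stretch at chr7:125444370-125444619 on the plus strand.
Sirt1: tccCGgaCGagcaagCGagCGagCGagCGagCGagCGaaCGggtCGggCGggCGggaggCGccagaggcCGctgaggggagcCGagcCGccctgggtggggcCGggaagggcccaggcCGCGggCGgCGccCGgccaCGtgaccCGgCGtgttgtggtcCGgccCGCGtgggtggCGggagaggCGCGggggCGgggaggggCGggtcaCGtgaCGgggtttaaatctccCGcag
Kdm5b: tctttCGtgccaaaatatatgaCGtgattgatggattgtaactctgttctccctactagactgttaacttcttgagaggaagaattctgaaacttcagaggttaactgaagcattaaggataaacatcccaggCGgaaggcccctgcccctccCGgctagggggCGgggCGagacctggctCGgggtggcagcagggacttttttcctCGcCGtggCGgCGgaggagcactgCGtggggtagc
Kdm8: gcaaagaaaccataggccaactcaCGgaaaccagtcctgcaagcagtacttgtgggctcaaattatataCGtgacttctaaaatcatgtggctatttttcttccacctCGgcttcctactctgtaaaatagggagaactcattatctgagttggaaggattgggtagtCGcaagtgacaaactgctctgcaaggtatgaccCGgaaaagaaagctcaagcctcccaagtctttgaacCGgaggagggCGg

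The printed stretches hold 36 CpG dinucleotides in 235 bases (Sirt1), 12 in 243 (Kdm5b) and 7 in 250 (Kdm8). In the 250 bases before the start, the promoters of the members (54 windows of 41 genes) had a median of 17.5 CpG, those of the 10404 genes of the expression table with an entry (13321 windows) 15 and all promoters of the RefSeq table (32851 windows) 6. The homeobox core TAATTA, which reads the same on both strands, was searched because homeodomain proteins such as Gbx2 bind sites of this kind. It was in 0 of the 54 windows of the members, in 2.49% of the windows of those 10404 genes and in 4.84% of all promoter windows. No match says only that these letters are not in these windows.

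Among the 16 Kdm genes, 8 had a higher and 8 a lower level in PB-Gbx2, and the median log2 ratio was -0.01. Of the 16, 3 were called higher (11.6% of all genes) and 0 lower (12.2% of all genes). Kdm5b, a JmjC demethylase of H3K4 methylation, was at 7932 in PB and 12289 in PB-Gbx2, a 1.55-fold difference at percentile 96.2 of genes of similar level. In the authors' deposited table its p is 0.037 and its adjusted p 1. The related Kdm5a went from 1660 to 1489 and Kdm5c from 2676 to 2976. The JmjC demethylases of H3K4 thus did not share a sign, although Kdm5a and Kdm5c lay inside the middle 90% of genes of similar level. The flavin demethylases of the same mark also differed in sign: Kdm1a (LSD1), the catalytic partner of CoREST, was at 4297 and 5166, and Kdm1b (LSD2), known for its role in oocytes, at 874 and 682.

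The Kdm demethylases of H3K9 and H3K36 given here differed by at most 1.28-fold. Kdm4a (2501 and 2232), Kdm4b (1642 and 1495) and Kdm4c (1794 and 1548), which act on both marks, were each lower in PB-Gbx2, by 1.10-fold to 1.16-fold. Kdm3b, an H3K9 demethylase, was at 3244 and 3288. Kdm2a and Kdm2b bind unmethylated CpG through a CXXC finger and demethylate H3K36. Kdm2a was at 1471 and 1441, and Kdm2b, which brings a Polycomb complex to CpG islands, at 1128 and 1447 (1.28-fold higher). Of the H3K27 demethylases, Kdm6a (UTX) was at 825 and 938 and Kdm6b (JMJD3) at 1891 and 1798. Kdm7a, which acts on H3K9 and H3K27, went from 836 to 666, 1.26-fold lower. All of these Kdm genes lay inside the middle 90% of genes of similar level.

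The other Kdm genes past 1.5-fold had low levels. Kdm8, a JmjC hydroxylase, was at 82 and 144, 1.76-fold higher in PB-Gbx2 at percentile 89.7 of genes of similar level. Kdm4dl was at 10 and 52, an excess in PB-Gbx2 on levels where ratios scatter widely. RefSeq lists Kdm4dl as a pseudogene, so its level does not stand for an enzyme. Its copy Kdm4d had no row in the expression table, and the split of reads between similar Kdm4 copies is uncertain. Without Kdm4dl the median of the Kdm genes was -0.03.

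The 11 Hdac genes had a median log2 ratio of -0.11, with 5 above and 6 below 0. Hdac11, the only class IV enzyme and a remover of fatty acyl groups, went from 308 in PB to 186 in PB-Gbx2, 1.66-fold lower at percentile 7.10 of genes of similar level. In the authors' deposited table its p is 0.204. Of the class I enzymes, Hdac1, Hdac2 and Hdac3 form the core of the large corepressor complexes. All 4 class I genes, Hdac8 included, were within 1.2-fold. Hdac1 was at 5795 and 4882 and its close paralog Hdac2, found in the same complexes, at 3194 and 3822, so the sign of the difference was opposite in these paralogs. Hdac3, the enzyme of NCoR complexes, was at 1801 and 1588, and Hdac8 at 82 and 85.

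Class IIa enzymes shuttle between nucleus and cytoplasm and have weak deacetylase activity of their own. Hdac7 was at 572 and 420 (1.36-fold lower), Hdac5 at 1832 and 1657, Hdac4 at 701 and 754 and Hdac9 at 18 and 20. Of the class IIb enzymes, the tubulin deacetylase Hdac6 was at 4366 and 4034, and Hdac10, a polyamine deacetylase, at 160 and 208 (1.30-fold higher). Thus 10 of the 11 Hdac genes were within 1.5-fold, with 0 called higher (11.6% of all genes) and 1 lower (12.2% of all genes). All 11 were inside the middle 90% of genes of similar level, and 10.2% of all genes lay outside it.

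Among the 17 methyltransferase genes, Prmt8 alone passed 1.5-fold. Thus 1 was called higher (11.6% of all genes) and 0 lower (12.2% of all genes). Prmt8, a membrane-bound arginine methyltransferase best known from brain, was at 105 in PB and 310 in PB-Gbx2, a 2.95-fold difference at percentile 99.1 of genes of similar level. In the authors' deposited table its p is 0.0122 and its adjusted p 0.748. The other Prmt genes stayed within 1.46-fold. Prmt1, the main enzyme of asymmetric arginine dimethylation, was at 5102 and 5348, and Prmt5, which makes the symmetric form and is needed for pluripotent cells, at 2578 and 2888. Prmt7, which adds single methyl groups, was at 1671 and 1893, Prmt3, which methylates a ribosomal protein, at 436 and 480 and Prmt6, which acts on H3R2, at 222 and 233. Prmt2, a coactivator with weak activity, was the only Prmt gene lower in PB-Gbx2 (236 and 162), just short of the 1.5-fold threshold at 1.46-fold. The Prmt median was 0.14, and 0.10 without Prmt8.

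None of the 8 Setd genes was called (11.6% of all genes were called higher and 12.2% lower), and their median log2 ratio was 0.02. The H3K4 methyltransferases Setd1a (882 and 892) and Setd1b (384 and 424) differed by at most 1.10-fold, and Setd7, which adds a single methyl group to H3K4 and to other proteins, was at 231 and 235. Setd2, the enzyme of H3K36 trimethylation, was at 3753 and 3098, 1.21-fold lower. Setd3, a histidine methyltransferase of actin, was at 2844 and 2508, Setd5 at 4036 and 4424 and Setd6, which methylates the NF-kB subunit RelA, at 2267 and 2411. Setd4 was at 488 and 342, 1.43-fold lower, with the largest Setd ratio in either direction. Ehmt1 (GLP) and Ehmt2 (G9a) act as a pair that mono- and dimethylates H3K9. Both had lower levels in PB-Gbx2, Ehmt1 at 1288 and 1159 and Ehmt2 at 3898 and 2937, and the 1.33-fold difference of Ehmt2 lay at percentile 6.14 of genes of similar level.

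**Figure D3:**
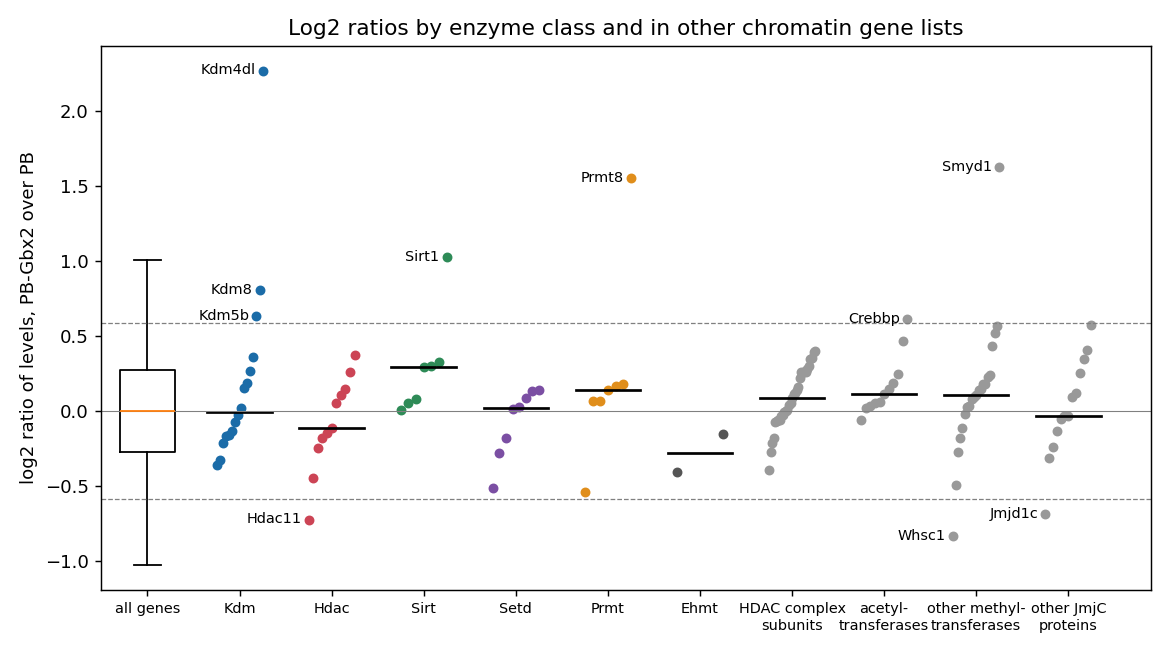
Log2 ratio of PB-Gbx2 over PB for each gene of the 6 series (coloured points) and of 4 lists of related chromatin genes (grey points), with a black line at each median. The box shows all 14500 genes (median, quartiles, whiskers at the 5th and 95th percentile), dashed lines mark 1.5-fold, and genes past it are named. All 7 sirtuin points lie above 0 (Sirt6 at 0.004), as do 6 of 7 Prmt points and 10 of 11 acetyltransferase points. The medians of the series other than Sirt lie between -0.28 and 0.14.

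Partner subunits and related enzymes were described from lists, beside the shares of all genes given above (11.6% called higher, 12.2% lower). Of 31 subunits of the Sin3, NuRD, CoREST and NCoR corepressor complexes, which hold Hdac1, Hdac2 or Hdac3, 0 were called in either direction, and the median was 0.09. The largest ratios there were those of Mbd2 (238 and 314), Chd3 (676 and 514), Mta2 (3637 and 4774) and Gatad2a (1893 and 2420), all NuRD subunits and none past 1.32-fold. The 3 Rcor genes, whose products join Kdm1a to Hdac1 and Hdac2, lay 1.06-fold to 1.22-fold higher in PB-Gbx2.

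Enzymes that add acetyl groups had a median of 0.11 over 11 genes, with 10 above 0 and 1 below. The coactivator Crebbp (446 and 682, 1.53-fold) was the only one called, at percentile 94.6 and inside the middle 90% of genes of similar level. Next came Hat1, which acetylates newly made H4 (5626 and 7787, 1.38-fold), Kat6b (8690 and 10292) and Kat5 (853 and 972). Other methyltransferases had a median of 0.11 over 21 genes, with 1 called higher and 1 lower. Smyd1, a muscle methyltransferase, was at 22 and 70, at percentile 94.8 and inside the middle 90% of genes of similar level. Whsc1, which dimethylates H3K36, was at 788 and 442 (1.78-fold lower), outside that range at percentile 3.10. The other enzymes of H3K36 methylation varied in sign: Whsc1l1 was at 938 and 666 and Nsd1 at 4006 and 5416. Setdb1, the H3K9 methyltransferase that silences retroviral repeats, was at 2506 and 3596 (1.43-fold higher), opposite in sign to Ehmt1 and Ehmt2, and Smyd2 was at 119 and 177. Suv39h1 (512 and 580) and Suv39h2 (253 and 273), which trimethylate H3K9 in heterochromatin, differed by at most 1.13-fold.

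Other JmjC proteins had a median of -0.03 over 13 genes, with 0 called higher and 1 lower. Jmjd1c, a relative of Kdm3b, was at 3879 in PB and 2411 in PB-Gbx2, 1.61-fold lower at percentile 1.45 of genes of similar level. Hspbap1 was at 999 and 1486, just short of the threshold at 1.49-fold higher and at percentile 96.8. Of the 13 genes, 2 (Jmjd1c and Hspbap1) lay outside the middle 90% of genes of similar level, beside 10.2% of all genes. Uty, the Y-linked relative of Kdm6a, was at 186 and 247 and Tyw5, a tRNA hydroxylase, at 160 and 204. Jarid2, a JmjC protein without demethylase activity that belongs to a Polycomb complex, was at 10586 and 8508.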

How the data were processed

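RNA-seq levels of 2 libraries, 1 per vector, were read from 1 table of 14501 rows. Per the submitters' processing notes, reads were handled with STAR on mm9. Their versions, the gene annotation and how reads were counted are not stated in these sources. The deposited levels, normalized and rounded by the authors, were used as a score rather than as counts, since the sorted values of both libraries are equal in all 14501 rows, as after quantile normalization. Depth is therefore unknown, and a difference in overall distribution cannot be seen. The authors' deposited ratio and log2 ratio are PB over PB-Gbx2 and were not used. The p-value and adjusted p-value that the authors deposited, from a test that the table does not name, are quoted as theirs. Both rows of 1 repeated symbol were summed, which left 14500.

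Log2 ratios (PB-Gbx2 over PB) were taken with a pseudocount of 1, and called at 1.5-fold. Percentiles are places within 20 groups of genes by mean level. The calling step was run on simulated levels with 2-fold changes and no noise, which checks only its arithmetic. Every member is given with its levels. From each list of related genes up to 4 with the largest ratio are named, and Suv39h1, Suv39h2, Whsc1l1, Nsd1, Jarid2 and the Rcor genes were named or singled out after their values were seen. The members and lists were chosen with earlier results of these data known. Promoters were matched by symbol for 41 of 51 members and 10404 of 14500 genes. Alternatives were pseudocounts of 0.1 and 5, rescaling by a trimmed mean (30% from each side), a mean level of at least 100 and a 2-fold threshold. Leaving out Kdm4dl, Sirt1 or Prmt8 was chosen after seeing the data. Python 3.11.15, numpy 2.4.6, pandas 2.3.3 and matplotlib 3.10.9 were used.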

Additional observations from a re-analysis of the deposited data

How the results depend on the processing

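A 2-fold threshold lowered the members called from 5 to 3 higher and from 1 to 0 lower, and all genes called from 1684 to 746 higher and from 1770 to 762 lower. A mean level of at least 100 left 724 genes higher and 758 lower. Of 99 values under the alternatives run, these 6 counts moved by over 1.5 times. Of 12 class and list medians, 1 changed sign, that of fibroblast markers, from 0.04 to -0.36 at a mean level of at least 100. None of the 6 members called at 1.5-fold changed direction, but these alternatives could not have changed it. The same pseudocount on both levels keeps the sign of a ratio, and a minimum level or another threshold leaves the ratio as it is. Kdm4dl lies under that minimum level and was not run there. Rescaling shifted log2 ratios by 1.6e-05, since the levels share 1 distribution, and so says nothing about stability. No paired analysis was possible because there is a single library per vector, which also means that none could be omitted in turn. Without known depth, no counting error could be given.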
